A study of Mus musculus with 12 samples.

Results

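Nfe2l2, Keap1, Hmox1, Gclc, Gclm, Slc7a11, Srxn1, Txnrd1, Gsr and Gsta4 form the core of the Nrf2 and glutathione defence programme. They were chosen by name, with earlier results of these data known, and every non-control probe whose accession maps to one of these symbols was taken. All 10 genes were on the array, with 17 probes, out of 32678 genes, and all 10 passed the filter on dim probes. Each of the 17 probes was well above background on all 12 arrays.

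The transcription factor Nrf2, encoded by Nfe2l2, drives genes that carry an antioxidant response element in their control regions. Keap1 holds Nrf2 in the cytoplasm and hands it to an ubiquitin ligase, and oxidants or electrophiles loosen that hold. The induced genes import cystine, make and recycle glutathione, reduce thioredoxin and oxidised peroxiredoxins, conjugate lipid aldehydes and break down haem. Much of this response is set at the level of Nrf2 protein, which an array of transcripts does not measure.

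Colonies were grown in 2 dimensions from the labial cervical loop of the mouse incisor, the niche of the dental epithelial stem cells. Double null colonies carried the genotype Bmi1-;Ink4a/Arf-, lacking Bmi1, a subunit of Polycomb repressive complex 1, and the Ink4a/Arf locus, which encodes a cyclin-dependent kinase inhibitor and an activator of p53. Bmi1 null colonies carried Bmi1-, and the third genotype was wild type (WT). Each genotype had 4 colonies, every array held 1 colony, and all mice were of mixed genetic background. Bmi1 is known from other mouse cells as a repressor of Ink4a/Arf and as a gene whose loss raises oxidants, which makes the antioxidant genes of these colonies a point of interest. The sources used here give neither ages nor how many animals the colonies came from. P-values therefore reflect how far colonies of a genotype spread, which may be technical.

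Levels are log2 of the background-subtracted signal minus the array's 75th percentile. The spread of signals was narrower on wild-type arrays, with a log2 interquartile range of 4.69 ± 0.36 in double null, 4.52 ± 0.18 in Bmi1 null and 2.56 ± 0.06 in wild-type colonies (SD, n = 4 each). The median signal was 63.4 to 150 in double null, 82.9 to 190 in Bmi1 null and 109 to 210 in wild-type arrays, with local background at 17 to 23. Precision is limited by the number of arrays. Bmi1 itself was lower by -2.26 ± 0.23 in double null and by -2.09 ± 0.23 in Bmi1 null colonies against wild type (log2, SE), which relative to the median of all genes was -1.01 in double null and -0.96 in Bmi1 null colonies. A second Bmi1 probe differed by -3.95 in double null and -4.13 in Bmi1 null colonies. The Ink4a/Arf gene Cdkn2a was well above background on 0 of 4 double null, 4 of 4 Bmi1 null and 0 of 4 wild-type arrays. Whether these probes lie in the deleted sequence was not analysed here. The keratins Krt14 and Krt5, which define basal epithelium, averaged 8.74 and 6.42 in double null, 8.60 and 6.32 in Bmi1 null and 7.44 and 4.95 in wild-type colonies.

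Promoter windows from 250 bases before to 50 bases after the transcription start were given by RefSeq (GRCm38.p6) for 6 of the 10 genes, in 8 windows; Hmox1, Gclc, Gsr and Gsta4 had none. They were searched on both strands for the core of the antioxidant response element, TGACNNNGC, where N is any base. The core was found in the windows of Nfe2l2, Srxn1, Gclm and Txnrd1, and not in those of Slc7a11 and Keap1 or in the other Txnrd1 windows. Across all 32851 windows of that length 12.4% held the core, and of 27025 genes 13.99% had it in at least 1 window. The 4 windows with a match are shown because they hold letters that match this core near the start of genes whose levels follow. Capitals mark the core and, in Srxn1, also TGANTCAGC, an AP-1 site followed by GC, a motif added after the windows had been read and present in 1.19% of windows. The Nfe2l2 window lies at chr2:75704614-75704913 on the minus strand, with the core 240 bases upstream of the start. The Srxn1 window lies at chr2:152105274-152105573 on the plus strand, with the AP-1 match 45 bases upstream and the core, on the reverse strand, 29 bases after the start. The Gclm window lies at chr3:122245307-122245606 on the plus strand, with the core on the reverse strand 134 bases upstream. The Txnrd1 window lies at chr10:82858956-82859255 on the plus strand, with the core on the reverse strand 92 bases upstream. A match of letters is a description and was not tested for binding.
Nfe2l2: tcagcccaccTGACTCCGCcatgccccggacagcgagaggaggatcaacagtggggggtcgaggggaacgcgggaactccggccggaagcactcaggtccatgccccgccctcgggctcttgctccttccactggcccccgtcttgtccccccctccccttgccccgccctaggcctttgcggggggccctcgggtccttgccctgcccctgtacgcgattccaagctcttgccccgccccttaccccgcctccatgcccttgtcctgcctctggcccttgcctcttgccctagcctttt
Srxn1: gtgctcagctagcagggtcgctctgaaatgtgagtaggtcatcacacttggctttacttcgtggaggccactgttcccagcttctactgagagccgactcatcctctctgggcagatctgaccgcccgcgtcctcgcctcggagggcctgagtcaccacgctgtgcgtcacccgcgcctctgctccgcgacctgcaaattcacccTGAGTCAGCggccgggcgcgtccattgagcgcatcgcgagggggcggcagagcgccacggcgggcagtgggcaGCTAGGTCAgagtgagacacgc
Gclm: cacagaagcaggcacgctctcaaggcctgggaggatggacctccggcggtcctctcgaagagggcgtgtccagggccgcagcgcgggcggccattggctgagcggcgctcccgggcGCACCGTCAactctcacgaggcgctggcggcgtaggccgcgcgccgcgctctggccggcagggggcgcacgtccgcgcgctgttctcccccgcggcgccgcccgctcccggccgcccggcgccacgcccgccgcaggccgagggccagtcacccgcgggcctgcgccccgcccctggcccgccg
Txnrd1: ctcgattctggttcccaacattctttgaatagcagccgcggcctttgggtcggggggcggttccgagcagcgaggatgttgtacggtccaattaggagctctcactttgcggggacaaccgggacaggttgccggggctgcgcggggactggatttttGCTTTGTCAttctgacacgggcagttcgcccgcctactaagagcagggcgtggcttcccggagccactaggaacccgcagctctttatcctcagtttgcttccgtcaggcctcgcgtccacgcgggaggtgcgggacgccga

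Double null colonies were set against Bmi1 null ones to ask what loss of Ink4a/Arf changes once Bmi1 is absent. Hmox1 was the only member called: heme oxygenase 1, the inducible enzyme that splits haem into biliverdin, iron and carbon monoxide, was 2.82-fold lower in double null colonies. Of the members, those that make, recycle and use glutathione were not called, and the level of Nfe2l2 differed by -0.10 ± 0.23 (log2, SE). In counts, 0 of 10 members were higher and 1 of 10 lower (limma, adjusted p under 0.05), against 2.75% of all tested genes higher and 4.8% lower. The median log2 difference of the 10 members was -0.13, beside -0.07 over all 31064 genes tested. With each array's median of all genes subtracted, 0 members were higher and 1 lower, against 3.56% and 3.55% of genes. In bulk RNA from a colony, fewer cells that express a gene and less RNA of it per cell cannot be told apart.

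Hmox1 had a level of 1.03, 0.99, 1.15 and 1.78 in double null colonies, 2.35, 2.45, 2.62 and 3.51 in Bmi1 null colonies and 2.75, 2.46, 2.73 and 2.33 in wild-type colonies. Every double null colony lay below every Bmi1 null colony, and the Bmi1 null and wild-type colonies overlapped. Groups that do not overlap, with the double null colonies lower, were seen for 7.29% of all genes. Double null and Bmi1 null colonies differed by -1.49 ± 0.27 (log2, SE, limma adjusted p = 0.00664), and -1.36 ± 0.31 relative to the median of all genes (limma adjusted p = 0.0185). Within the 2 slides that held both mutants it was -1.30 on slide 2, with 1 colony of each. On slide 4, with 2 double null colonies and 1 Bmi1 null colony, it was -1.22. A fit that took slides as blocks gave -1.29 and lost the call (limma adjusted p = 0.132); that fit called 98 genes higher and 197 lower in all, against 855 and 1492 without the block. Leaving out any 1 colony gave -1.67 to -1.24, called each time.

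Markers of other cells are given beside that result. Of 11 immune markers, which include those of macrophages, a cell type rich in Hmox1, 0 were called between the mutants, and their summed level was 0.21 to 0.79 in double null and 0.46 to 1.01 in Bmi1 null colonies (log2). Adgre1, the macrophage antigen F4/80, was well above background on 1 of 4 double null and 2 of 4 Bmi1 null arrays. None of the 12 mesenchymal markers was called, although the summed level ran from 2.51 to 5.37 in double null and from 2.34 to 3.38 in Bmi1 null colonies. Of 9 endothelial and erythroid markers 1 was lower, the alpha globin Hba-a1, at -0.88, -1.16, -1.06 and -1.69 in double null and -0.97, 3.11, 3.34 and 3.12 in Bmi1 null colonies. The beta globin Hbb-bt differed by -0.28 and was not called. Of 14 epithelial markers 3 were higher, Cldn7 by 3.58, Epcam by 1.72 and Cldn1 by 1.39. Beside these marker counts, 2.75% of all genes were higher and 4.8% lower between the mutants. The part of these markers in the Hmox1 result was not tested.

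**Figure D1:**
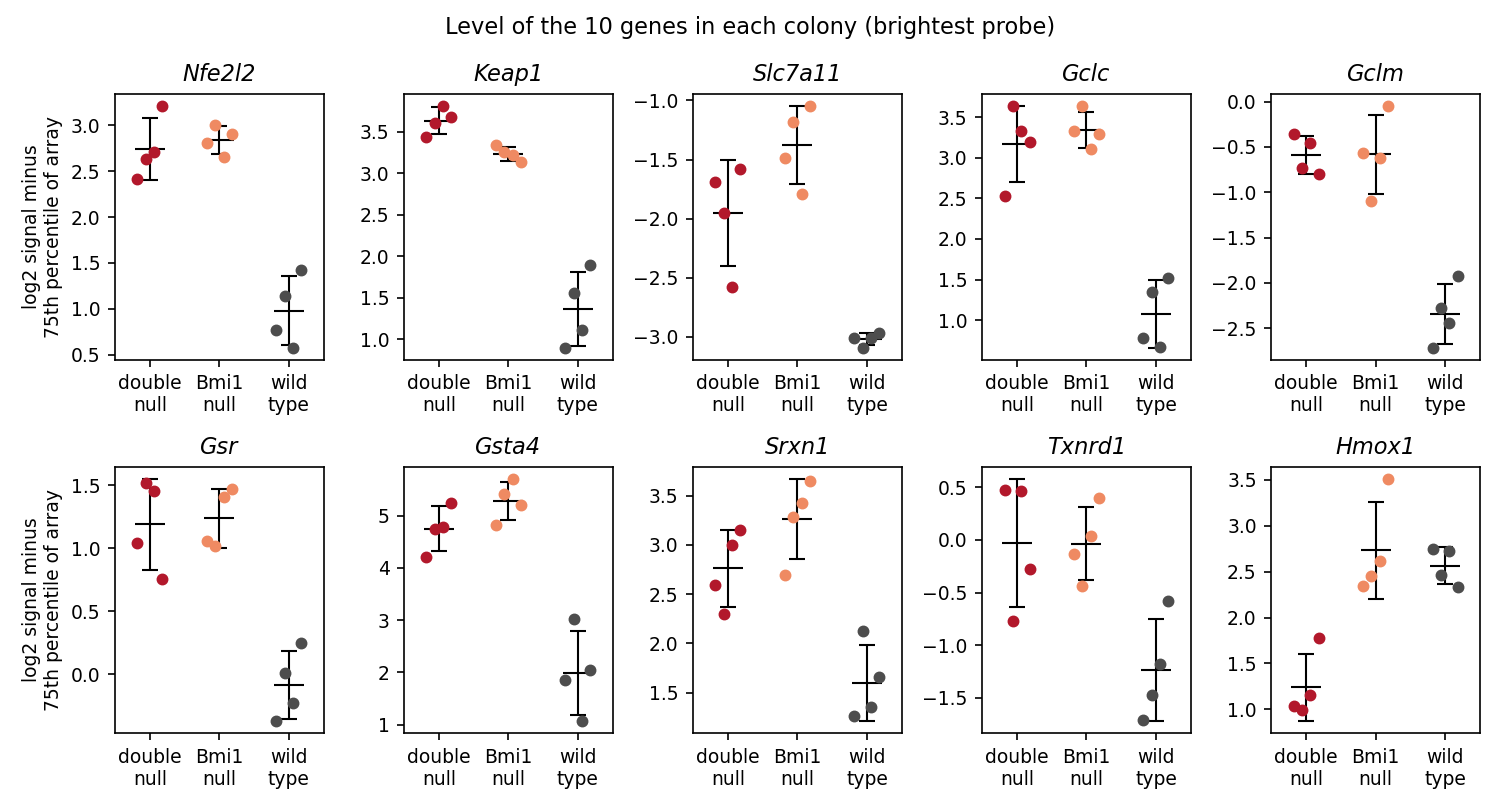
Level of each of the 10 genes in every colony, as log2 signal less the 75th percentile of its array, with 1 panel per gene and its own axis. Points are single colonies, lines are the mean and the SD (n = 4). For Hmox1 the 4 double null colonies sit at 0.99 to 1.78, below the 4 Bmi1 null colonies, while for the other 9 genes both mutants sit together above most or all wild-type colonies.

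The regulators come first. Nfe2l2 had levels of 2.42, 2.63, 2.71 and 3.21 in double null colonies, 2.80, 3.01, 2.65 and 2.91 in Bmi1 null colonies and 0.77, 1.14, 0.58 and 1.42 in wild-type colonies. The mutants overlapped, and every mutant colony lay above every wild-type colony. Between the mutants the difference was not called (95% interval -0.60 to 0.40, limma adjusted p = 0.857), and its second probe gave 0.03.

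Keap1, the adaptor that sends Nrf2 for degradation, had levels of 3.44, 3.61, 3.81 and 3.68 in double null colonies, 3.33, 3.26, 3.21 and 3.13 in Bmi1 null colonies and 0.90, 1.56, 1.12 and 1.89 in wild-type colonies. All 4 double null colonies were above all 4 Bmi1 null colonies, an order seen for 6.48% of genes, but once the median of all genes was subtracted the groups overlapped. The difference of 0.40 ± 0.22 was not called (95% interval -0.08 to 0.88, limma adjusted p = 0.322).

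Slc7a11, the cystine side of the cystine and glutamate exchanger, supplies the cysteine for glutathione. Its brightest probe read -1.69, -1.95, -2.58 and -1.58 in double null colonies, -1.49, -1.18, -1.80 and -1.05 in Bmi1 null colonies and -3.01, -3.09, -3.01 and -2.97 in wild-type colonies. The mutants overlapped and stood above the tightly grouped wild-type colonies. Between the mutants it differed by -0.57 ± 0.24, with an unadjusted 95% interval of -1.10 to -0.05 that does not reach 0 and a limma adjusted p of 0.183. The 3 probes of Slc7a11 disagreed in sign there: the other probes gave -0.26 and 0.45. On slide 2 the brightest probe differed by -1.40 and on slide 4 by 0.16.

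Gclc, the catalytic subunit of glutamate-cysteine ligase, carries the rate-limiting step of glutathione synthesis. It read 2.52, 3.64, 3.33 and 3.20 in double null colonies, 3.33, 3.64, 3.1 and 3.29 in Bmi1 null colonies and 0.78, 1.34, 0.67 and 1.52 in wild-type colonies. Gclm, the modifier subunit that raises the activity of Gclc, read -0.36, -0.73, -0.46 and -0.80 in double null colonies, -0.57, -1.10, -0.62 and -0.04 in Bmi1 null colonies and -2.71, -2.28, -2.44 and -1.92 in wild-type colonies. For both subunits the mutants overlapped and lay wholly above wild type. Between the mutants Gclc differed by -0.17 (95% interval -0.76 to 0.42) and Gclm by -0.0045 (95% interval -0.54 to 0.53), and neither was called.

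Gsr, glutathione reductase, regenerates glutathione with NADPH. Its levels were 1.04, 1.51, 1.45 and 0.75 in double null colonies, 1.06, 1.02, 1.41 and 1.47 in Bmi1 null colonies and -0.37, 0.01, -0.22 and 0.25 in wild-type colonies. Gsta4, a glutathione transferase that clears the lipid aldehyde 4-hydroxynonenal and is a known Nrf2 target, read 4.20, 4.75, 4.79 and 5.25 in double null colonies, 4.82, 5.41, 5.70 and 5.20 in Bmi1 null colonies and 1.85, 3.01, 1.07 and 2.04 in wild-type colonies. The mutants overlapped in both genes, with no wild-type colony reaching a mutant one. Gsr differed by -0.05 between the mutants (95% interval -0.54 to 0.44), and its other probes by 0.07 and -0.09. Gsta4 differed by -0.54 (95% interval -1.33 to 0.26, limma adjusted p = 0.443).

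Srxn1, sulfiredoxin, restores over-oxidised peroxiredoxins. Its brightest probe read 2.60, 2.30, 3.0 and 3.15 in double null colonies, 2.70, 3.28, 3.42 and 3.65 in Bmi1 null colonies and 1.26, 2.12, 1.36 and 1.65 in wild-type colonies. The mutants overlapped on that probe, whose difference of -0.50 ± 0.28 was not called (95% interval -1.10 to 0.10, limma adjusted p = 0.323). Another Srxn1 probe read 0.31, 0.49, 0.05 and 0.57 in double null, 0.67, 1.63, 1.60 and 1.49 in Bmi1 null and -1.29, -1.19, -1.51 and -0.95 in wild-type colonies. There the 3 groups did not overlap, and the probe was called between the mutants at -0.99 ± 0.24 (limma adjusted p = 0.0232 over all probes, 0.0507 relative to the median of all genes). Its remaining probe differed by -0.76 (limma adjusted p = 0.0581), so all 3 probes were lower in double null colonies and 1 of 3 was called.

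Txnrd1, the cytosolic thioredoxin reductase, had levels of 0.47, -0.77, 0.46 and -0.28 in double null colonies, -0.14, -0.43, 0.04 and 0.40 in Bmi1 null colonies and -1.71, -1.47, -1.18 and -0.58 in wild-type colonies. Double null replicate 2 lay below the highest wild-type colony, replicate 5, and all other mutant colonies lay above wild type. Between the mutants the difference was 0.0036 (95% interval -0.71 to 0.71).

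**Figure D2:**
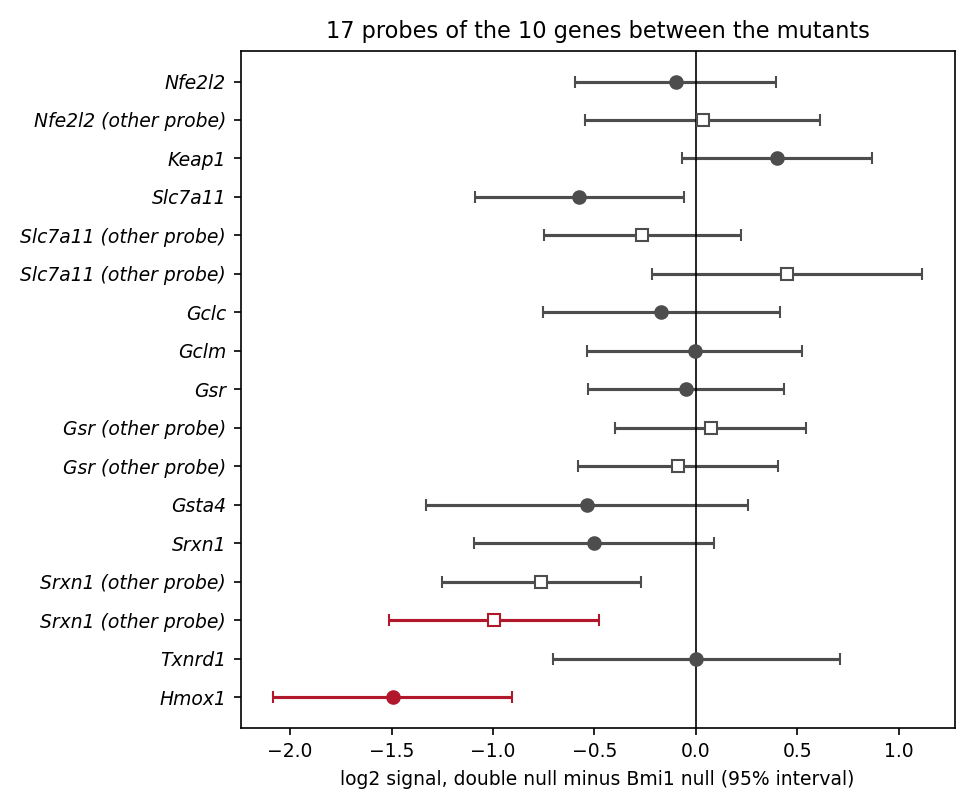
Difference in log2 signal, double null minus Bmi1 null, for each of the 17 probes, with its 95% interval (not adjusted for the number of genes). Filled circles are the brightest probe of a gene, open squares the other probes, and red marks probes called by limma, which are those of Hmox1 at -1.49 and 1 of 3 Srxn1 probes at -0.99.

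Double null colonies were next set against wild type, where 9 of 10 members were higher and 1 lower, against 25.5% of all genes higher and 59.9% lower. Gsta4 differed by 2.75 ± 0.37, Keap1 by 2.27 ± 0.22, Gclc by 2.09 ± 0.27, Nfe2l2 by 1.77 ± 0.23 and Gclm by 1.75 ± 0.25 (log2, SE). Smaller rises were those of Gsr at 1.27, Txnrd1 at 1.21, Srxn1 at 1.16 and Slc7a11 at 1.07, with limma adjusted p-values of at most 0.00396 among these 9. With quantile normalization Srxn1 differed by 0.34 and was not called. Slc7a11 ran from 0.59 with normexp to 3.02 with quantile normalization, called in 23 of 23 alternatives. Hmox1 was 2.51-fold lower, at -1.33 ± 0.27 (limma adjusted p = 0.000564), and its difference was -2.19 with quantile normalization and -2.34 in the authors' deposited table. The median log2 difference of all genes was itself -1.41 in this comparison. With each array's own median of all genes subtracted, 9 members were higher, against 39% of genes, and none was lower, against 38.1%. On that scale Hmox1 differed by -0.07 ± 0.31 (limma adjusted p = 0.844), beside a shift of all genes of nearly the same size as its fall.

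Bmi1 null colonies were set against wild type to ask what changes when Bmi1 is lost. There 9 of 10 members were higher and 0 lower, against 25.2% of all genes higher and 58.3% lower. Gsta4 differed by 3.29 ± 0.37, which is 9.79-fold, Gclc by 2.26 ± 0.27, Keap1 by 1.87 ± 0.22, Nfe2l2 by 1.87 ± 0.23 and Gclm by 1.76 ± 0.25 (log2, SE). Srxn1 followed at 1.66, Slc7a11 at 1.64, Gsr at 1.32 and Txnrd1 at 1.20, with limma adjusted p-values of at most 0.00423 among these 9. The size of the Gsta4 difference varied with the scaling, at 4.42 relative to the median of all genes and 2.43 with quantile normalization. Hmox1 differed by 0.17 ± 0.27 and was not called (95% interval -0.43 to 0.76, limma adjusted p = 0.579). The median log2 difference of all genes was -1.24. With each array's own median of all genes subtracted, all 10 members were higher, against 39.3% of genes, and 0 lower, against 37.6%. Hmox1 then stood at 1.29 ± 0.31 (limma adjusted p = 0.00185), but with quantile normalization it turned to -0.81 (limma adjusted p = 0.0104), so its direction against wild type depends on the scaling.

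**Figure D3:**
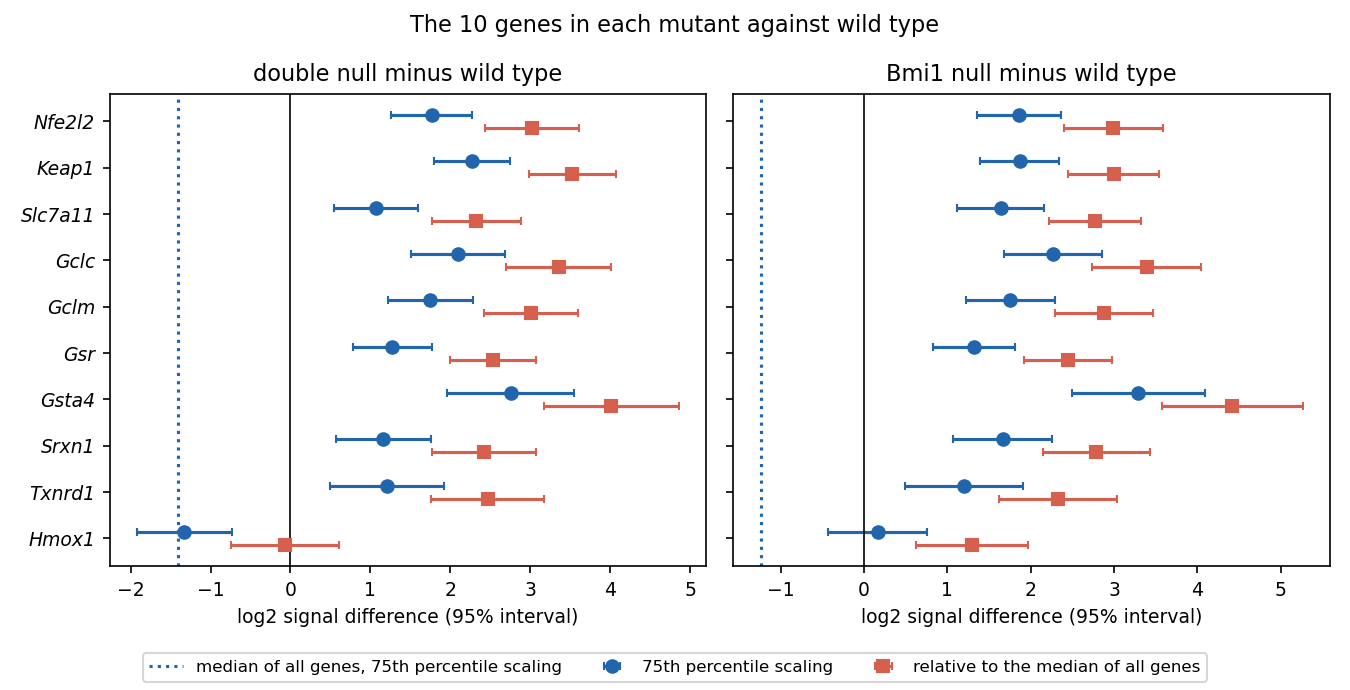
Difference in log2 signal of the 10 genes in double null (left) and Bmi1 null colonies (right), each minus wild type, with 95% intervals. Circles use the 75th percentile scaling, and the dotted line is the median difference of all genes on that scale. Squares come from values with each array's own median of all genes subtracted. All genes but Hmox1 lie right of 0 on both scales in both panels, and Hmox1 stands at -1.33 in double null and 0.17 in Bmi1 null colonies on the first scale and at -0.07 and 1.29 on the second.

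Both comparisons share the wild-type arrays, so their values are not independent. No overlap with wild type, with the mutant higher, was seen for 8 members in double null colonies, against 25.3% of genes, and for 9 in Bmi1 null colonies, against 23.8%. No overlap with the mutant lower was seen for 1 member, Hmox1, in double null colonies, against 55.8% of genes, and for 0 in Bmi1 null colonies, against 56.3%. The median of the 10 members relative to all genes was 2.77 in double null and 2.84 in Bmi1 null colonies, beside -0.14 and -0.11 over all genes. All 17 probes were above wild type in both mutants once the median of all genes was subtracted, Hmox1 in double null colonies excepted. On the 75th percentile scale the other Slc7a11 probes, at 0.06 and 0.64 in double null and 0.33 and 0.19 in Bmi1 null colonies, were not called. Within the slide shared by double null and wild type, with 1 colony of each, the 9 genes other than Hmox1 differed by 0.51 to 2.26. Within the 2 slides shared by Bmi1 null and wild-type colonies they differed by 1.56 to 3.56 (2 colonies of each) and by 1.01 to 2.39 (1 of each).

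Markers of several cell types also differed along the split of mutants from wild type. Of 14 epithelial markers 14 were higher in double null and 12 in Bmi1 null colonies, against 25.5% and 25.2% of all genes, with a summed level of 8.98 to 9.89 in double null, 8.97 to 9.45 in Bmi1 null and 7.16 to 8.71 in wild-type colonies (log2). All 11 immune markers were lower in both mutants, against 59.9% of all genes in double null and 58.3% in Bmi1 null colonies, with a summed level of 0.21 to 0.79 in double null, 0.46 to 1.01 in Bmi1 null and 3.22 to 3.61 in wild-type colonies. Relative to the median of all genes, 8 of the 11 were lower in each mutant. On that scale 39% of all genes were higher and 38.1% lower in double null, and 39.3% and 37.6% in Bmi1 null colonies. Of 9 endothelial and erythroid markers 9 were lower in double null and 8 in Bmi1 null colonies. Relative to the median 5 and 7 of them were lower, with 1 higher in Bmi1 null colonies. Of 12 mesenchymal markers 5 were lower in double null and 6 in Bmi1 null colonies, with 1 higher in each mutant. Relative to the median 3 mesenchymal markers were higher and 2 lower in double null, and 2 higher and 3 lower in Bmi1 null colonies. These mesenchymal counts lie below the shares of all genes on that scale. The narrower signal range of the wild-type arrays lies along the same split. The part of cell makeup and of signal range in the rises of the members was not tested.

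Beyond the 10 members, 129 genes of 9 related lists were described, of which 123 were tested. Between the mutants 8 of these were higher and 12 lower, which is 6.5% and 9.76% of them, beside 2.75% and 4.8% of all genes tested. With each array's median of all genes subtracted, the counts were 9 higher and 8 lower, against 3.56% and 3.55% of all genes. Without that subtraction the enzymes of phase II metabolism and the exporters had 0 higher and 5 lower of 19 tested, against 2.75% and 4.8% of all genes. With it they had 0 higher and 4 lower. The 12 partners and brakes of Nrf2, among them Cul3, Bach1 and the small Maf genes, had 0 called either way.

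Nqo1, the NAD(P)H quinone dehydrogenase that is a textbook Nrf2 target, showed the largest difference between the mutants among the genes of these lists. It read -1.77, -1.28, -2.21 and -0.36 in double null colonies, 2.15, 3.12, 3.55 and 4.27 in Bmi1 null colonies and -0.44, 0.38, -0.60 and -0.14 in wild-type colonies. Every Bmi1 null colony stood above every other colony, and double null and wild-type colonies overlapped. Between the mutants Nqo1 was 25.6-fold lower, at -4.68 ± 0.46 (limma adjusted p = 0.000161), with -5.11 under the slide block (limma adjusted p = 0.0211). Within slide 2, with 1 colony of each, it differed by -5.34. Within slide 4, with 2 double null colonies and 1 Bmi1 null colony, it differed by -4.61. Against wild type it was called lower in double null colonies at -1.20 ± 0.46 and stood at 0.06 relative to the median of all genes.

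Aldh1a1, a retinaldehyde dehydrogenase that also oxidises lipid aldehydes, followed the same order. Its levels were -0.18, 0.29, -0.48 and 1.22 in double null colonies, 3.86, 4.87, 5.02 and 5.22 in Bmi1 null colonies and 0.82, 0.98, 0.61 and 0.25 in wild-type colonies. The Bmi1 null colonies were again apart from both other genotypes, and the difference between the mutants was -4.53 ± 0.38 (limma adjusted p = 5.14e-05). Ptgr1, a prostaglandin reductase induced through Nrf2, was lower by -1.48 and the exporter Abcc5, named after its values were seen, by -1.34. Under the slide block the calls of Nqo1, Aldh1a1 and Abcc5 were kept among the 12 lower genes, and 0 of the 8 higher ones.

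Genes around haem, hydrogen peroxide and glutathione also held differences. Fth1, the ferritin heavy chain that stores the iron set free by Hmox1, read 1.97, 2.07, 1.62 and 3.85 in double null, 3.87, 3.49, 4.26 and 4.75 in Bmi1 null and 0.05, 0.61, 0.06 and 0.92 in wild-type colonies. Double null replicate 4 stood within the Bmi1 null range, and the difference of -1.72 ± 0.44 (limma adjusted p = 0.0342) was not called relative to the median of all genes (-1.58). Fth1 was the only gene called between the mutants in the list of 10 genes of haem breakdown and iron storage, which leaves out Hmox1. Cat, catalase, was lower by -1.16 ± 0.25 (limma adjusted p = 0.0144), 1 of 5 genes in the list of dismutases and catalase. Among all genes 2.75% were higher and 4.8% lower between the mutants, and each of these lists held 1 called gene. Gss, the second enzyme of glutathione synthesis, was lower by -0.64 and not called relative to the median (-0.50), and Gstt3, a glutathione transferase, was lower by -1.55.

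Of 9 tested genes in the list of NADPH supply, 3 were higher in double null colonies and none lower, against 2.75% and 4.8% of all genes. The 3 were the NADP-dependent isocitrate dehydrogenases Idh2 and Idh1, and Me2, a mitochondrial malic enzyme that works mainly with NAD. Idh2, the mitochondrial isocitrate dehydrogenase, read 2.89, 2.96, 3.41 and 2.99 in double null colonies, 0.94, 0.99, 1.41 and -0.11 in Bmi1 null colonies and -0.51, -0.07, -0.19 and 0.35 in wild-type colonies. The mutants did not overlap, at a difference of 2.25 ± 0.30 (limma adjusted p = 0.00137). Mgst3, a microsomal glutathione transferase, was higher by 1.99 ± 0.27, the endoplasmic reticulum peroxiredoxin Prdx4 by 1.37 and Ggt1, which breaks down extracellular glutathione, by 2.43 with overlapping groups. In the list of 14 genes of the Atf4 axis, another route to Slc7a11, 2 were higher and 2 lower, against those same shares of all genes. Atf3, a stress transcription factor, was higher by 1.59 and Asns, asparagine synthetase, by 0.90. Sesn2, a sestrin of the thioredoxin and peroxiredoxin list too, was lower by -0.99. Not all of these calls between the mutants were stable. Of 23 alternatives Gss was called in 6, Asns in 7, Fth1 and Ggt1 in 11 each, Ptgr1 in 16, and Prdx4 and Idh1 in 17 each. In the authors' deposited table Asns (limma adjusted p = 0.145), Gss (0.081), Prdx4 (0.0729) and Ptgr1 (0.0517) were not called.

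**Figure D4:**
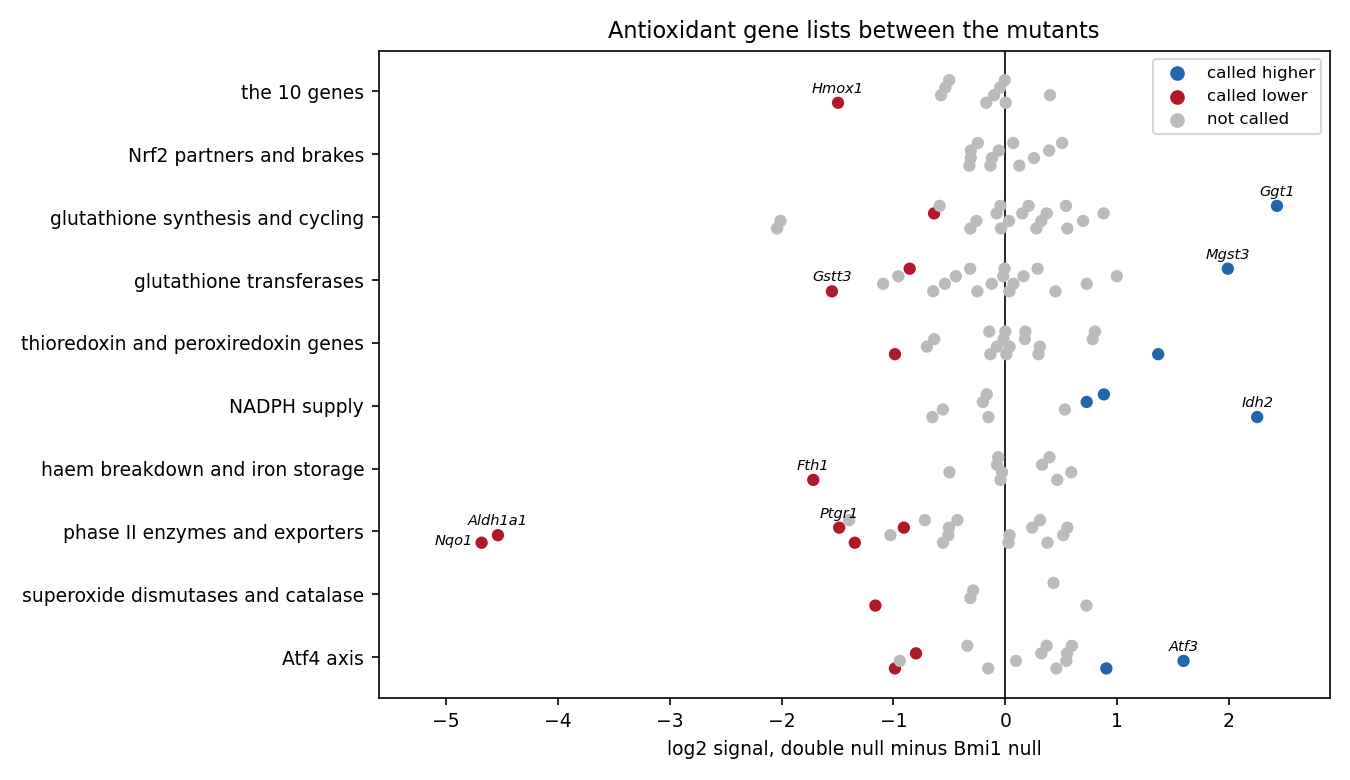
Difference in log2 signal, double null minus Bmi1 null, for the 10 genes and the 9 related lists. Each point is 1 gene, coloured by its limma call and the called genes that differ most are named. Nqo1 and Aldh1a1 lie apart at -4.68 and -4.53, and most other genes lie near 0.

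**Figure D5:**
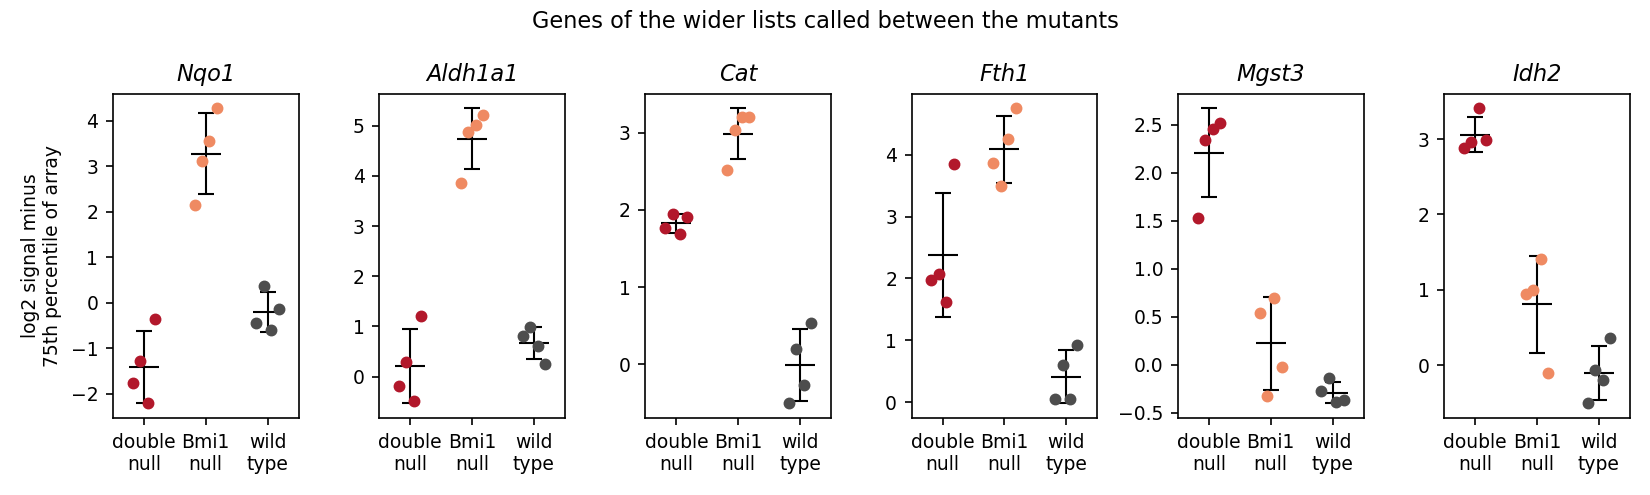
Levels in every colony of 6 genes of the related lists called between the mutants, as log2 signal less the 75th percentile of its array. Points are single colonies, lines are the mean and the SD (n = 4). Nqo1 and Aldh1a1 are high in Bmi1 null colonies alone, Idh2 and Mgst3 are high in double null colonies, and 1 double null colony of Fth1 reaches 3.85.

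Against wild type, 73 of the 123 tested genes of the lists were higher and 26 lower in double null colonies, which is 59.3% and 21.1%, against 25.5% and 59.9% of all genes. In Bmi1 null colonies 77 were higher and 27 lower, which is 62.6% and 22%, against 25.2% and 58.3% of all genes. With the median of all genes subtracted, these counts were 97 and 8 in double null and 98 and 9 in Bmi1 null colonies, where 39% of all genes were higher and 38.1% lower in double null and 39.3% and 37.6% in Bmi1 null colonies. Of 20 genes of glutathione synthesis, cycling and peroxidases, 13 were higher and 2 lower in double null, and 14 higher and 4 lower in Bmi1 null colonies. Relative to the median these counts were 18 and 1 in double null, and 16 and 2 in Bmi1 null colonies. Gpx3, the secreted glutathione peroxidase, was higher by 4.39 ± 1.10 in Bmi1 null colonies and not called in double null colonies (2.38, limma adjusted p = 0.0573). Glrx, a glutaredoxin, was higher by 2.99 in Bmi1 null colonies and not called in double null colonies (0.95). The difference between the mutants was not called for either gene. The double null colonies were spread, at 1.20, 1.75, -1.79 and 5.46 for Gpx3 and at 0.38, 1.0, 0.21 and 5.22 for Glrx. Glo1, the glyoxalase that uses glutathione, was higher by 2.70 in double null and 1.83 in Bmi1 null colonies, and Gpx1, the main cytosolic glutathione peroxidase, by 2.08 in double null and 2.13 in Bmi1 null colonies. Slc3a2, the partner chain of Slc7a11 in the exchanger, was higher by 2.24 in double null and by 1.87 in Bmi1 null colonies.

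Among 20 glutathione transferases 10 were higher and 6 lower in each mutant. Of all genes 25.5% were higher and 59.9% lower in double null, and 25.2% and 58.3% in Bmi1 null colonies. Relative to the median of all genes 14 transferases were higher in each mutant, with 1 lower in double null and 2 in Bmi1 null colonies. On that scale 39% of all genes were higher and 38.1% lower in double null, and 39.3% and 37.6% in Bmi1 null colonies. Gsta2 and Gsta1, alpha-class transferases so like each other that their probes may share signal, were higher by 2.40 and 2.31 in double null and by 3.04 and 2.75 in Bmi1 null colonies. The thioredoxin and peroxiredoxin list had 8 of 17 higher and 4 lower in double null, and 10 higher and 3 lower in Bmi1 null colonies. Relative to the median 14 of its genes were higher and 1 lower in each mutant. Prdx1 and Prdx5 were higher by 2.76 and 3.20 in double null and by 2.72 and 2.89 in Bmi1 null colonies. Of 9 genes of NADPH supply 8 were higher and 0 lower in double null, and 7 higher and 1 lower in Bmi1 null colonies, among them Tkt, transketolase, at 3.07 in double null and 2.54 in Bmi1 null colonies. The Nrf2 partners and brakes had 9 of 12 higher in each mutant, with 3 lower in double null and 2 in Bmi1 null colonies. Relative to the median 9 were higher in double null and 11 in Bmi1 null colonies, with 0 lower in either. Cul3, the scaffold of the ligase that Keap1 serves, stood at 2.35 in double null and 2.28 in Bmi1 null colonies. The list of phase II enzymes and exporters had 9 of 19 higher and 5 lower in double null, and 12 higher and 5 lower in Bmi1 null colonies. Relative to the median this list had 13 higher in double null and 15 in Bmi1 null colonies, with 3 lower in each. Its exporter Abcc3 was lower by -5.86 in double null and by -5.31 in Bmi1 null colonies.

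Over the 8 mutant arrays the tested genes whose levels were most like Hmox1 were Map2k3 (Pearson r = 0.992), Cflar (0.978) and Pdrg1 (0.974). For Keap1 the nearest was Sdc1 (0.993), and for Nfe2l2 it was Nipal2 (0.967). For the other 7 members the highest r was 0.926 for Gclc, with Casz1, to 0.977 for Gsta4, with Hdhd2. These values describe 8 arrays of 2 genotypes, share the scaling of each array and were picked as the highest of all genes, so they carry no test.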

How the data were processed

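RNA from each of 12 colonies was amplified and Cy3-labelled for a 1-colour Agilent mouse array, per the labels' protocols. The deposited scanner files hold each spot's processed signal, a background-subtracted intensity on a linear scale, as the authors' scanner software made it, per the file headers. The build in those headers, mm9, was not used for coordinates. The authors' own processed values, deposited as a table, lie on a log2 scale and served as an alternative. How they were made is not stated in the sources used here.

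Each array's log2 processed signal had its own 75th percentile subtracted. Control spots and outlier spots were left out, and 0 spots were saturated. A probe was kept if some genotype had it well above background on 3 or more of 4 arrays, which left 39338 of 41174. Accessions were matched to RefSeq (GRCm38.p6): 24844 probes had 1 symbol, 0 several and 16330 none. The brightest probe by mean level stood for a gene, and other probes are given for the members. The 3 genotype means were fitted over all 12 arrays with lmFit and eBayes of limma 3.58.1 (R 4.3.3), with Benjamini-Hochberg adjustment over 31064 genes and calls at an adjusted p under 0.05. A change relative to the median of all genes is that of a second fit, added after seeing the data, on values with each array's median of the tested genes subtracted. Intervals are 95% and not adjusted. The script for these fits was tested on simulated data.

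The 10 members, the related lists, the markers and the naming rule were chosen with earlier results of these data known. The rule named all members and, per related list and comparison, up to 3 called genes with the largest change relative to the median, and the nearest genes by correlation over the mutant arrays. Replicate numbers came from the sample titles. Same-numbered colonies correlated at -0.14 to 0.22 in their deviations from the group means, so the numbers were not taken to pair them. Slides, 5 in all and each scanned once, served as a block in an alternative. Other alternatives changed the background correction (normexp, offset 50, on the median spot signal, since the files hold no mean), the scaling, the filter, the probe rule, the arrays in the fit and left out each colony in turn.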

Additional observations from a re-analysis of the deposited data

Results flagged for a closer look

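One value among the 17 member probes stood apart from the rest of its group. On the Srxn1 probe that was called between the mutants, Bmi1 null replicate 1 had a level of 0.67 (log2 signal less the 75th percentile of its array), against 1.63, 1.60 and 1.49 in the other Bmi1 null colonies. Its gap to the nearest colony was, as a share of the range, above Dixon's 95% critical value for 4 samples. Chance flags about 1 in 20 groups, and 51 groups were examined, of which 1 was flagged. The other Srxn1 probes also had their lowest Bmi1 null level in replicate 1, at 2.70 and 0.33.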

How the results depend on the processing

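Of 711 values of single genes under alternatives, 698 kept their call in the same direction or stayed uncalled. Direction was not compared where neither fit made a call. Of the counts 256 of 276, and of the medians 62 of 69, stayed within their limits. For Hmox1, the fall in double null against Bmi1 null colonies held in 22 of 23 alternatives. That fall lost its call with the slide as a block (-1.29, limma adjusted p = 0.132). Between Bmi1 null and wild-type colonies Hmox1 differed by -0.09, not called, without Bmi1 null replicate 4. There it turned to a call lower in the authors' table (-0.957) and with quantile normalization (-0.81). Those 2 settings each put 1 member lower in Bmi1 null colonies, 0 were lower in double null against wild-type colonies with median scaling or relative to the median of all genes, and 0 were lower between the mutants with the slide as a block. Srxn1 lost its call against wild type in double null colonies with quantile normalization (0.34). Of the related lists between the mutants, 8 were higher and 12 lower, against 5 and 7 with quantile normalization, 0 and 3 with the slide as a block, and 4 higher with only the 8 arrays compared. Lower in double null than in wild-type colonies were 26, against 15 with normexp, 9 with median scaling, 17 with a slide block and 8 relative to the median. In Bmi1 null colonies 27 were lower than in wild type, against 9 with median scaling and 9 relative to the median.

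Leaving out 1 colony moved the higher genes of the lists between the mutants to 4 to 7 and the lower ones to 7 to 15. The lowest counts came without Bmi1 null replicate 4 (4 higher) and without Bmi1 null replicate 3 (7 lower), and 5 were higher without double null replicate 2 or 3. With the replicate block Hmox1 differed by -1.49 between the mutants (adjusted p = 0.0145), and the lists had 6 higher and 8 lower. Over all genes that block called 507 higher and 885 lower between the mutants, against 855 and 1492. The scaling set the split of calls against wild type: 29.9% of called genes were higher in double null and 30.1% in Bmi1 null colonies, against 46.1% and 46.9% with median scaling. Other counts between the mutants were 596 and 462 with normexp, 524 and 852 with quantile normalization, 347 and 622 with only the 8 arrays compared and 98 and 197 with a slide block. The cause was not tested, beyond the fewer arrays and degrees of freedom of the last 2.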
